A study of Mus musculus with 6 samples.

Results

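Tubulin isotypes are the alpha- and beta-tubulin proteins encoded by separate genes, and the 10 genes described here were chosen by name (Tuba1a, Tuba1b, Tuba1c and Tuba4a for alpha-tubulin, and Tubb2a, Tubb2b, Tubb3, Tubb4b, Tubb5 and Tubb6 for beta-tubulin) out of 21878 genes in the expression table. All 10 were above 0 in all 6 libraries and all 10 entered the test, which covered 12889 genes. The question was whether the isotypes moved together or apart when HT22 cells, an immortalized mouse hippocampal neuronal line, were exposed to aluminum (Al). RNA was sequenced from 3 control libraries and 3 Al libraries, described in the series text as biological triplicates, and these were the input libraries that accompanied an immunoprecipitation of m6A-methylated RNA. The study's methods give 120 µM aluminum maltolate, a soluble complex of Al with the chelator maltol, for the Al group, while the series text gives a range of 0 to 240 µM. The sample labels themselves mark the groups only by the letters C and M. The study lists a medium-only group under the name control beside a separate maltol group, and its general treatment section gives 24 h of exposure. Its sequencing section repeats neither the control medium nor the time. The labels name no transgene, genotype or second line for any sample.

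Alpha- and beta-tubulin form the heterodimer from which microtubules, the hollow filaments of the spindle, cilia and axons, are assembled. The isotypes of each family are closely alike in the globular body of the protein and differ mostly in the acidic carboxy-terminal tail, which faces the outside of the microtubule and is where glutamate chains and other modifications are added. Cells also hold tubulin mRNA in check by autoregulation: when unpolymerized dimer is abundant, the first residues of a nascent tubulin chain, methionine and arginine followed by glutamate and isoleucine in beta-tubulin or glutamate and cysteine in alpha-tubulin, are recognized on the ribosome by TTC5, and SCAPER then brings the CCR4-NOT deadenylase to the mRNA. This control acts on all isotypes that carry these residues, whereas transcription of each gene is set by its own promoter.

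The first 5 codons of the coding sequence are shown because they encode the stretch that autoregulation reads. The capitals mark codons 2 to 4, taken 5′ to 3′ from the GENCODE M21 transcripts on the mouse build GRCm38.

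Tuba1a: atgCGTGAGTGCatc
Tuba1b: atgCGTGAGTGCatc
Tuba1c: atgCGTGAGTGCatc
Tuba4a: atgCGCGAGTGCatt
Tubb2a: atgCGCGAGATCgtg
Tubb2b: atgCGAGAGATCgtg
Tubb3: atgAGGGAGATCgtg
Tubb4b: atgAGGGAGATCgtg
Tubb5: atgAGGGAAATCgtg

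Tuba1a, Tuba1b and Tuba1c shared the same 15 bases, and Tuba4a differed from them only in the third position of codons. Among the beta isotypes Tubb3 and Tubb4b were identical over these 15 bases, and Tubb5 had another glutamate codon. The 9 starts therefore fell into an alpha and a beta form that encode the same residues within each family. Tubb6, at chr18:67390717-67402749 on the plus strand, is described by its values only.

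The last 63 coding bases encode the carboxy-terminal tail and the stop codon, and they are shown for the beta isotypes Tubb4b and Tubb5, whose shares of the summed FPKM of their family changed by the most percentage points among the beta isotypes without quantile normalization. The capitals mark the glutamate codons GAA and GAG, the residues to which glutamate chains are added.

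Tubb4b: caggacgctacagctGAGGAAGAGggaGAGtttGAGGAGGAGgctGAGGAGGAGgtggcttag
Tubb5: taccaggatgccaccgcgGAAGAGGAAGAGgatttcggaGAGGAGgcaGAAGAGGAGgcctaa

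The tail of Tubb4b held 10 glutamate codons and that of Tubb5 held 9. Over the whole coding sequence Tuba1a and Tuba1b were 98.3% identical, Tuba1b and Tuba1c 97.9%, and Tuba1a and Tuba1c 97.1%, while Tubb4b and Tubb5 were 82.2% identical.

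This similarity bears on how well reads can be assigned. Of all 150-base windows of the representative transcript, the length of a read, 45.3% were found in no other gene for Tuba1a, 42.1% for Tuba1b and 53.3% for Tuba1c, and each of these genes shared windows with 10 others, 6 of them pseudogenes. The share was 54.3% for Tuba4a, whose transcript overlaps Stk16, and 72.1% for Tubb2a and 79.9% for Tubb2b, which share windows with each other. It was 83.2% for Tubb4b, which shares windows with 1 pseudogene, and 100% for Tubb3, Tubb5 and Tubb6. Values of Tuba1a, Tuba1b and Tuba1c, of Tuba4a, and of Tubb2a and Tubb2b, are therefore uncertain as values of single genes, and how the authors' counting treated shared reads was not tested. In GENCODE M21 the genes lie at chr15:98949837-98953703 (Tuba1a, minus strand), chr15:98931425-98934565 (Tuba1b, minus), chr15:99029891-99038110 (Tuba1c, plus), chr1:75214228-75219865 (Tuba4a, minus), chr13:34074274-34078007 (Tubb2a, minus), chr13:34126748-34130466 (Tubb2b, minus), chr8:123411424-123422015 (Tubb3, plus), chr2:25222160-25224702 (Tubb4b, minus) and chr17:35833921-35838306 (Tubb5, minus).

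The control libraries held 37768842 to 44220124 reads on genes and the Al libraries 20973691 to 26487603, of which 138789 to 180462 and 79090 to 130645 fell on the isotypes. In the Al group the 50 most abundant genes of each library took 30.01 to 32.5% of all summed FPKM (fragments per kilobase of transcript, scaled to library depth), against 18.04 to 19.4% in controls. The FPKM of each library were therefore divided by a size factor, the median ratio to a reference over 10337 genes, and all levels below are these scaled FPKM unless named as deposited. Over all tested genes this left a median log2 fold change of 0.03, against -0.43 for the deposited FPKM and -0.74 for TPM. The share of tested genes called higher and lower in Al was 26.2% and 24.4% with size factors, 14% and 42% with the deposited FPKM, 9.32% and 53.1% with TPM, 22.2% and 24.2% with quantile normalization and 26.4% and 24.4% with limma voom on recovered reads. Of 10 neuronal markers, 8 were below 0.5 FPKM as deposited in every library, Nefm and Snap25 were at 0 throughout, and Tubb3 itself and Eno2 were the others. On scaled values the fibroblast genes Col1a1, Col1a2 and Pdgfrb summed to 1719 to 2708 FPKM in controls and to 3040 to 4311 FPKM after Al, with Col1a1 called higher (log2 fold change 0.92) and Col1a2 (0.47) and Pdgfrb (-0.66) not called. Their deposited sums overlapped, at 2018 to 3209 and 2476 to 3459 FPKM. The proliferation genes Mki67, Top2a and Ccnb1 summed to 225 to 239 scaled FPKM in controls and to 261 to 278 after Al. Ccnb1 was called higher (0.86), and Mki67 (0.55) and Top2a (-0.17) were not called. On deposited values the direction of the sum turned, to 266 to 289 against 210 to 259 FPKM. There Top2a was lower in every Al library, Ccnb1 was higher in every one (38.2 to 41.8 against 47.9 to 55.5 FPKM), and Mki67 overlapped. The 4 astrocyte markers summed to 11.8 to 19.4 scaled FPKM in controls and to 1.89 to 2.80 after Al, nearly all of it the glutamate transporter Slc1a3, which was called lower (-2.96), while Aqp4 was at 0 throughout. Among 4 microglial markers Cx3cr1 was called higher (2.14) at levels up to 1.12, P2ry12 was at 0 throughout, and the sums overlapped. The oligodendrocyte sums lay below 1 scaled FPKM in every library. The part of any of these markers in the isotype results was not tested. In bulk RNA a change in the number of cells of a kind and a change in RNA per cell cannot be told apart.

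In control cells Tubb5, a beta-tubulin of most dividing tissues, was the most abundant isotype at 684 ± 41.5 scaled FPKM (SD, n = 3), followed by Tuba1b at 284 ± 32.1. Tubb4b at 156 ± 12.4 and Tuba1a at 152 ± 7.36 overlapped between libraries and were not separated in level. Tubb6 at 105 ± 3.12 and Tuba1c at 84.0 ± 4.84 came next, then Tubb2a at 23.8 ± 3.98, Tuba4a at 6.65 ± 0.280 and Tubb3 at 4.48 ± 0.212. The neuronal isotype Tubb3 was thus among the lowest of the family in this line, and Tubb2b was lower still, at 0.129 ± 0.112 on 6 to 26 reads a library. In Al cells the order began with Tubb5, Tuba1b and Tuba1a, and Tubb6, Tuba1c and Tubb4b came next with overlapping ranges. Tubb4b thus overlapped Tuba1a in control cells and lay below it in every Al library.

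**Figure D1:**
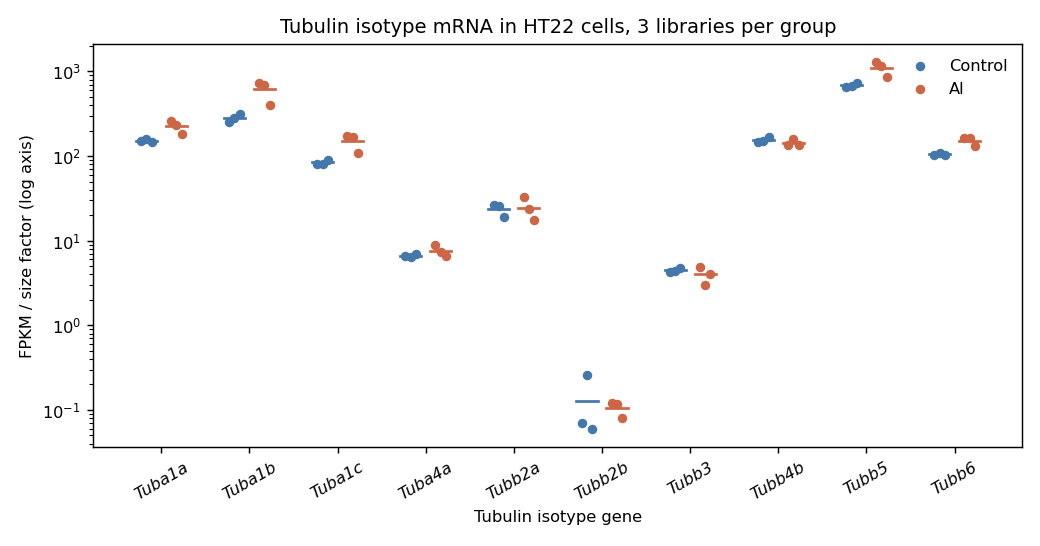
Scaled FPKM (FPKM divided by the library's size factor, log axis) of the 10 tubulin isotypes, with a point for each of 3 control (blue) and 3 Al (orange) libraries and a line at each group mean. The Al points of Tuba1a, Tuba1b, Tuba1c, Tubb5 and Tubb6 all lie above the control points, while those of the other 5 isotypes overlap the control points.

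With size factors, 3 of the 10 isotypes passed the study's thresholds (P under 0.05 before adjustment, and a log2 fold change beyond 0.58 either way) as higher in Al and 0 as lower, against 50.6% of all tested genes called in either direction (26.2% higher). The same 3 passed with P adjusted over all tested genes, where 25.5% were called higher and 23.7% lower. The count of 30% called lay below the background, and the calls depended on the scaling: with the deposited FPKM, TPM or quantile normalization 0 isotypes were called higher and 2, 4 and 2 were called lower. Of the 3, Tuba1b and Tuba1c lost the call without a change of sign, and Tubb5 turned with TPM and quantile normalization. Without Al replicate 3 the count was 5, since Tuba1a and Tubb6 passed as well. Without Al replicate 1 or 2, or control replicate 1 or 2, it was 2.

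Tuba1b, the main alpha-tubulin of dividing cells, was at 254, 280 and 318 scaled FPKM in controls and at 738, 693 and 405 after Al. All Al libraries lay above the controls, with Al replicate 3 nearest to them. Of the proliferation genes Ccnb1 and Mki67 were also higher in every Al library on scaled values and Top2a was lower in every one, and their part was not tested. The log2 fold change was 1.07 (SE 0.24, limma adjusted P = 0.00465), a 2.16-fold ratio of means. Tuba1b also stood above the control group on the deposited FPKM, at 592, 564 and 378 against 301, 338 and 373, where its log2 fold change of 0.578 missed the threshold by a small margin.

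Tuba1c, an alpha isotype with the same coding start as Tuba1b, was at 81.0, 81.5 and 89.6 in controls and at 171, 170 and 110 after Al. The groups did not overlap, and the log2 fold change was 0.81 (SE 0.17, limma adjusted P = 0.00362). Tuba1a, the isotype of developing neurons, was at 149, 161 and 147 against 259, 233 and 184, also without overlap. Its log2 fold change of 0.55 (SE 0.15, limma adjusted P = 0.0109) stayed under the fold threshold, without Al replicate 3 it was 0.70 and passed, and it turned below 0 with TPM (-0.23) and quantile normalization (-0.15). Tuba4a, an alpha isotype whose gene does not encode the terminal tyrosine, was at 6.62, 6.39 and 6.95 against 8.89, 7.37 and 6.55. The groups overlapped, and its log2 fold change was 0.18 (SE 0.14, limma adjusted P = 0.275), which turned to -0.30 with the deposited FPKM and to -0.60 with TPM, where Tuba4a was called lower.

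Tubb5 was at 652, 668 and 731 in controls and at 1282, 1170 and 851 after Al. Every Al library lay above every control, and the log2 fold change was 0.67 (SE 0.23, limma adjusted P = 0.0298). The call was lost without Al replicate 1 (0.55), Al replicate 2 (0.62), control replicate 1 (0.62) or control replicate 2 (0.64), with the deposited FPKM (0.18), with TPM (-0.12) and with a replicate block, and with quantile normalization Tubb5 was called lower (-0.64). Tubb6, the most divergent beta isotype in sequence from Tubb5, was at 103, 109 and 104 against 162, 164 and 130. These groups did not overlap either, and the log2 fold change of 0.52 (SE 0.12, limma adjusted P = 0.00581) was under the fold threshold. Without Al replicate 3 it was 0.64 and passed, and with TPM (-0.26) and quantile normalization (-0.12) it turned below 0.

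Tubb4b, a beta isotype of cilia and many other tissues, was at 146, 152 and 170 in controls and at 137, 158 and 135 after Al. The groups overlapped on scaled values, with a log2 fold change of -0.13 (SE 0.12, limma adjusted P = 0.385). On the deposited FPKM Tubb4b was at 174, 184 and 200 against 110, 129 and 125, without overlap, and it was called lower there (-0.62), with TPM (-0.91) and with quantile normalization (-0.78). Tubb4b was thus below 0 under all 4 scalings, and Tuba1b (1.07, 0.58, 0.28 and 0.21) and Tuba1c (0.81, 0.32, 0.02 and 0.20) were above 0 under all 4.

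Tubb3, the beta isotype used as a marker of neurons, was at 4.31, 4.40 and 4.72 against 4.94, 2.999 and 4.07. Its scaled groups overlapped with a log2 fold change of -0.19 (SE 0.18, limma adjusted P = 0.404), and it was called lower on the deposited FPKM (-0.66) and with TPM (-0.97), while with quantile normalization it was at 0.10. Tubb2a, a beta isotype abundant in brain, was at 26.2, 26.0 and 19.2 against 32.6, 23.6 and 17.3, a log2 fold change of 0.01 (SE 0.22, limma adjusted P = 0.972). It was -0.48 on the deposited FPKM and -0.19 with quantile normalization, and with TPM Tubb2a was called lower (-0.78). Tubb2b, its near-identical neighbour, had 6, 26 and 6 reads in controls and 5, 4 and 3 after Al, so that a change could not be resolved at this depth (log2 fold change -0.06, SE 0.43, limma adjusted P = 0.917).

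On scaled values the Al libraries of 5 isotypes (50%) lay wholly above the controls, those of 0 lay wholly below and 5 overlapped, beside 35.1% of all tested genes wholly above and 33.1% wholly below. On the deposited FPKM 1 isotype lay above (Tuba1b) and 3 below (Tuba4a, Tubb3 and Tubb4b), beside 20.1% and 50.1% of all tested genes. Al replicate 3 was the lowest Al library for 9 of the 10 isotypes on scaled values and for 7 on the deposited FPKM. The distance from the lowest to the highest isotype was 1.25 on the log2 scale with size factors, 1.24 with the deposited FPKM, 1.25 with TPM and 1.13 with quantile normalization. Size factors, the deposited FPKM and TPM thus differed in the level of all isotypes and little in the distance between them, while quantile normalization also moved isotypes relative to each other, with Tubb5 at 0.67 with size factors and -0.64 with quantiles. Read against the median of all tested genes under the same scaling, 6, 7, 7 and 4 of the 10 isotypes lay above it with size factors, the deposited FPKM, TPM and quantile normalization.

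**Figure D2:**
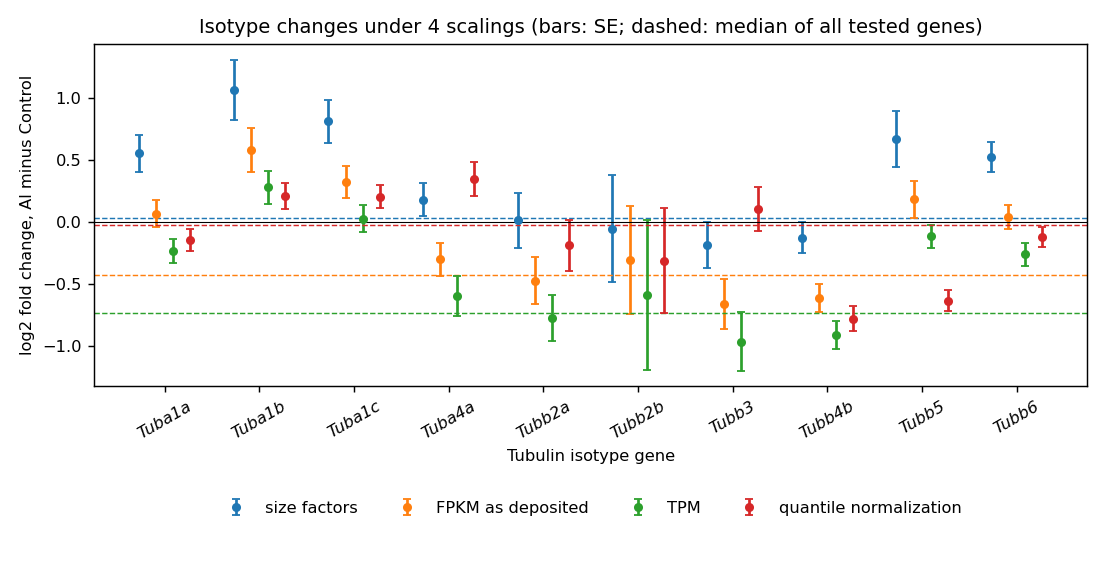
Log2 fold change (Al minus control) of each isotype under 4 scalings of the same libraries, as points with bars of 1 SE, with a dashed line of the same colour at the median of all tested genes under each scaling. Tuba1b and Tuba1c lie above 0 and Tubb4b below 0 under all 4, and the medians of all genes run from 0.03 with size factors to -0.74 with TPM.

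The share of an isotype within its own family is left as it is by any scaling that uses 1 factor per library (size factors, the deposited FPKM and TPM), but not by quantile normalization. Within alpha-tubulin, Tuba1b held 51.8, 52.9 and 56.6% of the summed FPKM in controls and 62.7, 62.8 and 57.4% after Al. Tuba1a held 30.3, 30.4 and 26.2% against 22.0, 21.1 and 26.1%. In both cases the groups did not overlap, but control replicate 3 and Al replicate 3 lay close to each other, at 56.6 and 57.4% for Tuba1b and at 26.2 and 26.1% for Tuba1a. Tuba1c had overlapping shares of 15.97 ± 0.548% and 15.2 ± 0.574%, and Tuba4a went from 1.27 ± 0.0748% to 0.784 ± 0.132% without overlap. Reads shared among Tuba1a, Tuba1b and Tuba1c, and between Tuba4a and Stk16, bear on these alpha shares, and their part was not tested.

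Within beta-tubulin, Tubb5 held 70.0, 69.6 and 71.0% of the summed FPKM in controls and 79.2, 77.1 and 74.8% after Al. Tubb4b held 15.7, 15.8 and 16.5% in controls and 8.45, 10.4 and 11.8% after Al. Neither overlapped, and the mean difference was 6.83 points for Tubb5 and -5.81 points for Tubb4b. Tubb3 went from 0.460 ± 0.00238% to 0.287 ± 0.0816% without overlap. Tubb6 had 10.8 ± 0.650% against 10.7 ± 0.726%, Tubb2a 2.46 ± 0.518% against 1.70 ± 0.276%, and Tubb2b 0.0134 ± 0.0117% against 0.00739 ± 0.000378%, all with overlap. In total the Al shares of 2 isotypes lay above, those of 4 lay below and those of 4 overlapped the control shares. The shares of a family add up to its whole, so a gain of any isotype lowers the shares of the others. These counts are thus not separate results for each isotype, and no such count over all genes was made. For each of the 6 without overlap the exact permutation P was 0.1, the smallest that 3 against 3 libraries allow, so no share could pass 0.05.

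On quantile-normalized values, an alternative chosen after the data were seen, the shares differed. Tubb5 held 76.6, 75.4 and 75.2% of beta-tubulin in controls and 74.4, 72.8 and 72.4% after Al, so that its difference turned to -2.49 points. Tubb4b held 12.7, 13.3 and 14.3% against 10.3, 12.1 and 12.9%, with overlap and a difference of -1.66 points. Tubb6 (3.39 points) and Tubb3 (0.17 points) then lay above the controls without overlap. In the alpha family the differences of Tuba1b (3.64 points) and Tuba1a (-4.76 points) had the same sign as before with overlapping groups, while Tuba1c turned to 0.955 points and Tuba4a to 0.16 points, both above the controls without overlap. The share of Tubb5 thus depended in direction, and that of Tubb4b in separation, on whether libraries were scaled by a factor or by quantiles.

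**Figure D3:**
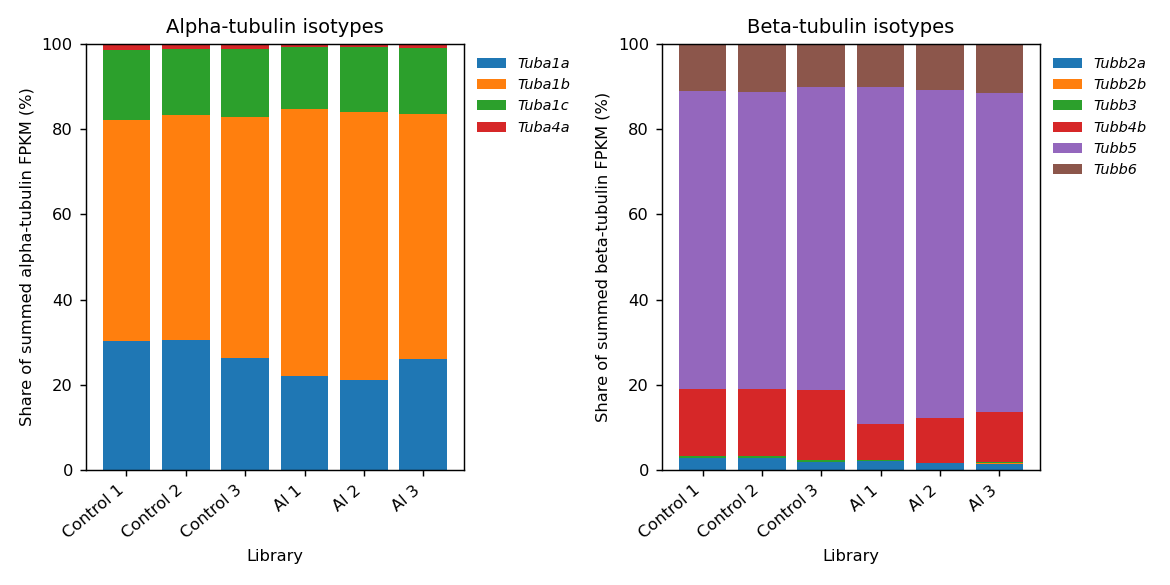
Stacked bars of each isotype's share (%) of the summed alpha-tubulin FPKM (left) and summed beta-tubulin FPKM (right) in each of the 6 libraries. Tubb4b took 15.7 to 16.5% of beta-tubulin in controls and 8.45 to 11.8% after Al, and Tubb5 took 69.6 to 71.0% and 74.8 to 79.2%.

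The ratio of Tubb5 to Tubb4b, chosen after its values were seen and given without a test, was 4.45, 4.40 and 4.29 in controls and 9.38, 7.42 and 6.32 after Al. The ratio of Tubb4b to Tubb6, chosen in the same way, was 1.42, 1.40 and 1.64 against 0.845, 0.963 and 1.03. Tubb4b was thus lower relative to both isotypes in every Al library, and most windows of these 3 transcripts are unique to their gene. On quantile-normalized values the ratio of Tubb4b to Tubb6 was likewise lower in every Al library (1.47, 1.44 and 1.63 against 0.875, 0.966 and 1.03), while that of Tubb5 to Tubb4b overlapped (6.05, 5.68 and 5.25 against 7.23, 6.01 and 5.61). The ratio of Tuba1b to Tuba1a, also chosen after its values were seen, was 1.71, 1.74 and 2.16 against 2.84, 2.97 and 2.20, with Al replicate 3 just above control replicate 3, and with quantiles it overlapped.

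The summed alpha-tubulin level was 490, 528 and 561 scaled FPKM in controls and 1176, 1103 and 706 after Al. This was a log2 difference of 0.89, which was 0.40 with overlap on the deposited FPKM, 0.10 with TPM and 0.11 with quantile normalization. The summed beta-tubulin level was 932, 959 and 1028 against 1618, 1519 and 1137, a log2 difference of 0.53 that was 0.05 with overlap on the deposited FPKM and turned to -0.25 with TPM and -0.59 with quantile normalization. The ratio of beta to alpha was 1.90, 1.82 and 1.83 in controls and 1.38, 1.38 and 1.61 after Al. All Al libraries lay below the controls in this ratio, and they did so with quantile normalization too (2.32, 2.17 and 2.09 against 1.27, 1.30 and 1.47). Reads that Tuba1a, Tuba1b and Tuba1c share with each other and with pseudogenes bear on the alpha sum and on this ratio, and their part was not tested. The 10 isotypes together held 0.476 ± 0.00899% of all summed FPKM in controls against 0.440 ± 0.0346% after Al, with overlap.

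The promoters of 8 isotypes were found in the RefSeq promoter table, and the 250 bases before the start site are shown for Tubb4b and Tuba1c. Whether any of these windows overlaps an annotated transcript was not tested. Tubb4b is shown as an isotype whose share of summed FPKM was lower in every Al library, though not with quantile normalization. Tuba1c is shown as an isotype that was called higher with size factors. The capitals mark the motifs CCAAT (or ATTGG on the other strand) and GGGCGG (or CCGCCC), and the sequences are written 5′ to 3′ along the gene's strand on GRCm38, at chr2:25224703-25224952 (minus strand) and chr15:99029641-99029890 (plus strand).

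Tubb4b: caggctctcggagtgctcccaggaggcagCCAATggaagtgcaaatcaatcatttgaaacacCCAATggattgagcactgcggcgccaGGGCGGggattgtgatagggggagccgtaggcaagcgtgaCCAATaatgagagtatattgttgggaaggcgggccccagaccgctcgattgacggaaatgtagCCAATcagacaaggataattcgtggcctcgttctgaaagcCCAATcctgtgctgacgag
Tuba1c: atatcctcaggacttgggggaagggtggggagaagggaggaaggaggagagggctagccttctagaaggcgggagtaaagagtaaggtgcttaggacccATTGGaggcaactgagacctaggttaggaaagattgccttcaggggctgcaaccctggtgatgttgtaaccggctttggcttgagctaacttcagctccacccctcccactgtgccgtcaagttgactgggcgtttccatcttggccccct

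The Tubb4b window held 5 CCAAT motifs and 1 GGGCGG motif, and the Tuba1c window held 1 and 0. Of 32851 promoter windows of the same length, 33.9% held CCAAT and 32.7% held GGGCGG at least once on either strand. Tubb5 held 2 CCAAT, Tuba1a and Tubb3 held 1 each, and Tuba1b, Tuba4a and Tubb2a held 0. TATAAA, present in 12.4% of all windows, was found in the Tubb2a window alone among the 8. A match of letters is a description and says nothing of binding.

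Genes that act on tubulin were taken from lists. Of the 10 other tubulin genes 6 were tested, with 1 called higher and 2 lower, which is 50% of them beside 50.6% of all tested genes. Tubg2, a gamma-tubulin of the microtubule nucleation complex, rose from 0.850 ± 0.341 to 2.32 ± 0.731 scaled FPKM (log2 fold change 1.38, SE 0.33, limma adjusted P = 0.00633), and Tubb4a, a beta isotype of oligodendrocytes and neurons, fell from 2.48 ± 0.370 to 1.38 ± 0.400 (-0.83). Tubg2 lost its call with TPM (0.69), and Tubb4a with quantile normalization (-0.53) and a pseudocount of 1 (-0.56). Tubd1, delta-tubulin of the centriole, fell (-0.92), a call lost without Al replicate 1 (-0.54), control replicate 1 (-0.84) or control replicate 2 (-0.83), and when the pseudocount was 1 (-0.51). The main gamma-tubulin Tubg1 (-0.45) and the epsilon-tubulin Tube1 (-0.19) were not called, nor was Tubb1 (1.36, limma adjusted P = 0.1), which had 0 to 24 reads a library.

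The genes that fold tubulin were mostly called higher with size factors, and the call depended on the scaling. Of the 8 subunits of the chaperonin CCT, which folds newly made tubulin and actin, 7 were called higher and 0 lower with a median log2 fold change of 0.73, but with the deposited FPKM, TPM or quantile normalization 0 were called higher and the medians were 0.24, -0.06 and 0.09. Cct7 was at 103 ± 10.3 against 200 ± 36.0 (0.95), Cct8 at 0.81 and Cct5 at 0.78 on the log2 scale. Of the 6 subunits of prefoldin, which hands nascent tubulin to CCT, 4 were called higher and 0 lower (median 0.99), a count of 2 with the deposited FPKM and 0 with TPM. Pfdn1 rose from 23.4 ± 4.27 to 61.0 ± 15.9 (1.36), Pfdn2 by 1.25 and Pfdn5 by 1.06, and Pfdn5 lost its call with quantile normalization too (0.40). Of all tested genes 26.2% were called higher with size factors, and their median was 0.03.

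The tubulin cofactors, which assemble the heterodimer after folding, were split. Of 7 tested, 3 were called higher and 1 lower, which is 57.1% beside 50.6% of all tested genes. The higher ones were Tbca (1.20), which binds beta-tubulin, Tbcc (0.77) and Tbcd (0.74), and the lower one was Arl2. Arl2, the small GTPase that works with these cofactors, was at 47.4, 42.3 and 43.2 in controls and at 8.12, 6.66 and 6.89 after Al, a log2 fold change of -2.60 (SE 0.11). The groups were far apart, and Arl2 fell under every alternative tried. With TPM 0 cofactors were called higher and Tbcc and Tbcd turned to -0.01 and -0.04. With the deposited FPKM only Tbca kept its call among the 3, and with quantile normalization Tbcd lost its call (0.47).

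Of 12 genes of the autoregulation pathway, 2 were called higher and 2 lower (median 0.01), which is 33.3% of them beside 50.6% of all tested genes. Ttc5, which recognizes the nascent chain, was at 5.54, 6.63 and 6.29 against 7.28, 6.58 and 9.14, with overlapping groups (log2 fold change 0.30, SE 0.15, limma adjusted P = 0.106) and a sign that turned with the deposited FPKM (-0.18) and TPM (-0.48). Scaper, the adaptor to the deadenylase, was at 3.61, 4.03 and 3.51 against 1.47, 1.18 and 1.28, and it fell by 1.44 on the log2 scale (SE 0.16). Scaper was the most changed gene of the pathway, with every Al library under every control. Among the deadenylase subunits Cnot9 fell (-0.67), and Cnot7 (0.65), a catalytic subunit, and the scaffold Cnot1 (0.60) were called higher with size factors but not with the deposited FPKM, and both turned below 0 with TPM (-0.12 and -0.18). The Cnot1 call was also lost with quantile normalization (0.20) and without Al replicate 3 (0.58) or control replicate 2 (0.54), and the Cnot7 call with a pseudocount of 1 (0.57).

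Of 10 genes of the gamma-tubulin ring complex, which nucleates microtubules, 2 were called higher and 3 lower, which is 50% beside 50.6% of all tested genes. The higher ones were Tubg2 and the small subunit Mzt1 (0.85), whose call was lost with the deposited FPKM (0.37) and TPM (0.08). The lower ones were the attachment factor Nedd1 (-1.21) and the core subunits Tubgcp2 (-1.17) and Tubgcp4 (-0.63), of which Tubgcp4 lost its call without Al replicate 3 (-0.56), with quantile normalization (-0.46) and with a pseudocount of 1 (-0.55). Of the 23 tubulin modifying enzymes 18 were tested, with 4 called higher and 5 lower (median -0.14), again 50% of those tested. Ttll7 (-1.60) and Ttll1 (-1.29), which add glutamate to beta and alpha tails, and Vash2 (-1.26), which removes the terminal tyrosine, fell. Ttll3 (1.58), a glycylating enzyme, was at 1.74 ± 0.345 against 5.34 ± 0.171, and Ttll11 was called higher (0.93) with size factors but not with the deposited FPKM (0.50), TPM (0.26) or a pseudocount of 1 (0.45). Ttll9 was called higher on 0, 3 and 0 reads in controls and 64, 16 and 26 after Al, lost the call with a pseudocount of 1, and like Ttll11 was not tested where the mean FPKM had to reach 1.

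Of the 4 stathmins, which bind free tubulin dimer, 2 were tested. Of these 1 was called higher and 1 was not called, so that 50% were called beside 50.6% of all tested genes. Stmn4 was called higher on 2 to 10 reads a library (1.18), with a limma adjusted P of 0.0596, and the call was lost with the deposited FPKM, TPM, quantile normalization, voom and a pseudocount of 1, and in 5 of the 6 fits that left out a library. Those 5 were the fits without Al replicate 2 (0.84) or 3 (1.03) and without control replicate 1 (1.21), 2 (1.09) or 3 (1.17).

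**Figure D4:**
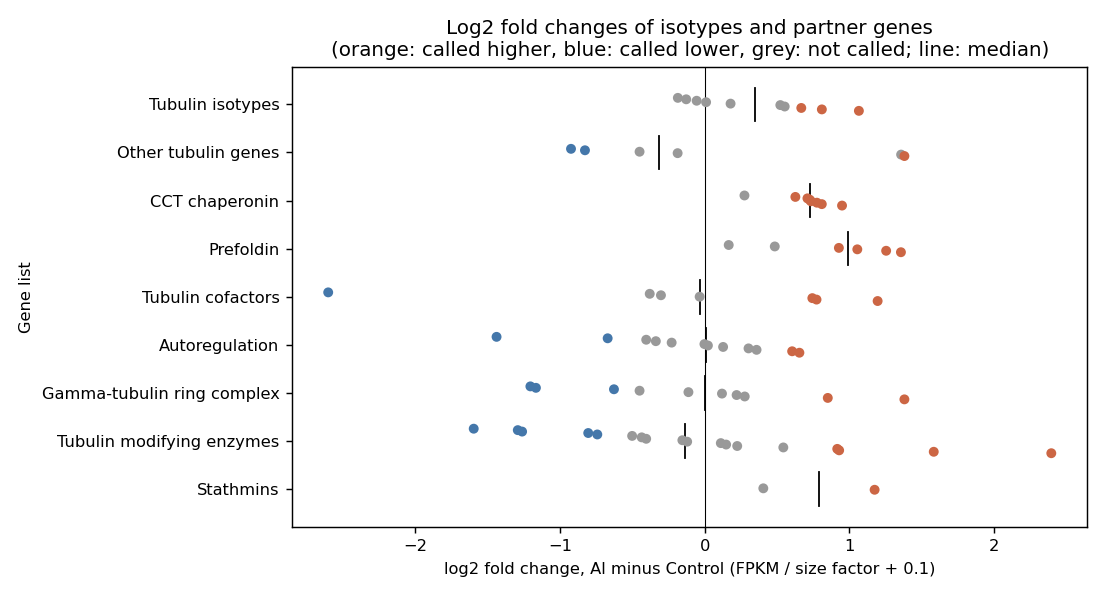
Log2 fold change (Al minus control, size factors, pseudocount 0.1) of each tested gene, with a row for the isotypes and for each list and a vertical bar at each median. The isotypes run from -0.19 to 1.07, the CCT subunits lie between 0.28 and 0.95, and Arl2 stands alone at -2.60.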

How the data were processed

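RNA-seq of HT22 input libraries, 3 control and 3 Al, was taken as the deposited FPKM table. The libraries were grouped by the letters C and M of the sample labels, read as control and Al from the series text and the study. The authors made the FPKM from paired-end reads: the study's methods name Trimmomatic, SortMeRNA, HISAT2 and the build GRCm38, the submitters' processing notes name fastp, HISAT2, HTSeq and GRCm39, and the series text names a bovine build. The annotation behind the FPKM is not given in the sources used here, and coordinates printed are those of GENCODE M21. The study tested with a count model. FPKM are not counts, so limma 3.58.1 (R 4.3.3; lmFit, eBayes with trend) on log2(FPKM / size factor + 0.1) over 12889 genes whose mean FPKM reached 0.1 was used with the thresholds of the study's methods, 0.05 for P and 0.58 for the size of the log2 fold change. P values were adjusted by Benjamini-Hochberg over all tested genes. Because of the pseudocount, fold changes of low genes are understated. Size factors were median ratios over genes whose mean FPKM reached 1.

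Whole reads were recovered from the FPKM steps for 17688 of 17688 genes above 0 (100%, tolerance 0.0001 reads) and used for depth and for limma voom, since a count test is not fitted to FPKM. Depth sets the precision: Tubb2b, with 3 to 26 reads a library, has an error too wide to read a change. Exact permutation tests were two-sided over the 6 libraries. Shares were taken on FPKM, and on quantile-normalized FPKM as an alternative added after the data were seen. 0 columns of per-sample values were left unused.

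Coding sequences are of the longest APPRIS principal transcript with a CCDS tag. Windows of 150 bases were compared with all GENCODE transcripts on both strands. Motifs were searched on both strands. Scripts (Python 3.11.15) were tested on simulated data. Alternatives were the deposited FPKM, TPM, quantile normalization, a pseudocount of 1, other filters, no trend, voom, adjusted P, a replicate block and leaving out each library. All 10 isotypes are named. In the other tubulin and autoregulation lists any tested gene could be named, and in other lists up to 3 called genes with the largest change each way. The members and lists were chosen with earlier results of these data known.

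The same replicate numbers occur in both groups, but no source says that they mark a shared batch. Correlations of the deviations of same-numbered libraries from their group means were -0.03, -0.03 and -0.07.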

Additional observations from a re-analysis of the deposited data

How the results depend on the processing

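The level results rest on the scaling between libraries, and shares and ratios within a library change with quantile normalization. Each group has 3 libraries, so 1 library can decide a call, and the exact test cannot go below 0.1. Depth limits Tubb2b, Tubb1 and Stmn4. Why the settings differ was not tested.

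All tested genes called higher numbered 1805 with the deposited FPKM and 1201 with TPM, and those called lower 5417 and 6848. Isotypes called higher numbered 0 with the deposited FPKM, TPM and quantile normalization, and those called lower 2, 4 and 2. Other tubulin genes called higher numbered 0 with TPM and 2 with voom, and those called lower 4 with the deposited FPKM, 4 with TPM and 0 with a pseudocount of 1. CCT subunits called higher numbered 0 with the deposited FPKM, TPM and quantile normalization. Prefoldin subunits called higher numbered 2 with the deposited FPKM and 0 with TPM, and 1 was lower with TPM. Cofactors called higher numbered 1 with the deposited FPKM and 0 with TPM, and lower 3 and 4. Autoregulation genes called higher numbered 0 with the deposited FPKM and TPM and 1 with a pseudocount of 1 or quantile normalization, and lower 5 with the deposited FPKM and 8 with TPM. Ring complex genes called higher numbered 1 with the deposited FPKM and 0 with TPM, and lower 5 and 6. Modifying enzymes called higher numbered 2 with the deposited FPKM and TPM and 1 with a mean FPKM of at least 1 or a pseudocount of 1, and lower 10 and 11 with the deposited FPKM and TPM. Stathmins called higher numbered 0 under the deposited FPKM, TPM, a mean FPKM of at least 1, a pseudocount of 1, quantile normalization, voom and adjusted P, and 1 was called lower with no filter.

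Log2 fold changes that turned sign were Tuba1a (TPM -0.23, quantile normalization -0.15), Tuba4a (deposited FPKM -0.30, TPM -0.60), Tubb2a (deposited FPKM -0.48, TPM -0.78, quantile normalization -0.19, without Al replicate 1 -0.21 and without control replicate 3 -0.15), Tubb2b (voom 0.10, without Al replicate 3 0.048), Tubb3 (quantile normalization 0.10, without Al replicate 2 0.011), Tubb5 (TPM -0.12, quantile normalization -0.64) and Tubb6 (TPM -0.26, quantile normalization -0.12). Among partner genes they were Cct5 (TPM -0.011), Tbcc (TPM -0.0093), Tbcd (TPM -0.041), Cnot7 (TPM -0.12), Cnot1 (TPM -0.18) and Ttc5 (deposited FPKM -0.18, TPM -0.48). The summed beta-tubulin difference turned to -0.25 with TPM and -0.59 with quantile normalization. With quantile normalization, applied to sums and shares after the data were seen, the share differences that turned sign were Tuba1c (0.955 points), Tuba4a (0.164), Tubb2a (0.582), Tubb3 (0.174), Tubb5 (-2.49) and Tubb6 (3.39).

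Leaving out each library in turn gave 2 to 5 isotypes called higher, 1 to 2 other tubulin genes higher and 1 to 2 lower, 1 to 2 autoregulation genes higher, and 0 to 1 stathmins higher. The number of ring complex genes called lower ran from 2 to 3 and of modifying enzymes called higher from 3 to 5. The log2 fold change ran from -0.21 to 0.25 for Tubb2a, from -0.27 to 0.048 for Tubb2b and from -0.34 to 0.011 for Tubb3. The range of Tubb2b leaves out the fit without control replicate 2, where its mean FPKM was under the filter of 0.1 and it was not tested. The log2 fold change ran from 0.066 to 0.29 for Tuba4a (without Al replicate 1 and 3) and from -0.19 to -0.075 for Tubb4b (without Al replicate 2 and 3). Neither Tuba4a nor Tubb4b was called in any of these fits. The difference in share ran from -0.00975 to 0.000777 points for Tubb2b and from -0.445 to 0.295 points for Tubb6, which was also above 0 without control replicate 1 (0.0327) or control replicate 2 (0.175).

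Whether the replicate numbers pair the libraries is stated by no source, and 3 libraries per group cannot settle it. With a replicate block Tubb5 kept 0.67 but lost its call, leaving 2 isotypes called higher, and with 3 numbers this says nothing of a weaker effect.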

Other observations

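A gene outside the tubulin family, chosen after its values were seen because its symbol can be mistaken for a tubulin, was Tub, which encodes the tubby protein of ciliary membrane traffic. It had 1, 4 and 1 reads in controls and 114, 140 and 248 after Al. On scaled FPKM it was at 0.00373, 0.0128 and 0.00322 against 0.897, 1.32 and 2.12. The limma log2 fold change was 3.78 (SE 0.35, adjusted P = 4.49e-05), a value that depends on the pseudocount because the control libraries held so few reads.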
